A study of Mus musculus with 7 samples.

Results

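The major urinary protein (Mup) genes are a family of closely related mouse genes, and 7 of them were examined in liver: Mup1, Mup2, Mup3, Mup4, Mup5, Mup20 and Mup21. Each gene was represented by every array probe whose only annotated gene was a listed member under its current or an older name. This gave 8 probes of the 45281 in the deposited intensity table, covering 5 of the 7 genes: 3 probes for Mup2, 2 for Mup5 and 1 each for Mup3, Mup20 and Mup21. Mup1 and Mup4 matched no probe. The family was selected on measured values, namely the differences of these probes between ethanol and control animals on the same arrays. A probe for Mup6, a relative with its own gene ID that shares an older name with Mup2, was kept apart and is given for comparison.

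The livers came from 7 male C57BL/6J mice, an inbred laboratory strain, all at postnatal day 28, with 1 Illumina array each. Of these, 3 were ethanol animals, whose dams had free access to drink containing 10% (v/v) ethanol between fertilization and gestational day 8.5. The other 4 were controls, for which the treatment label repeats the ethanol text, so the group was read from the title. The labels do not say which animals were littermates, so every spread below is that between these 7 samples, and it may be smaller than that between litters.

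Mup proteins are lipocalins, small secreted proteins folded into a barrel that holds a hydrophobic ligand. Hepatocytes secrete them into blood, the kidney passes them into urine, and there they bind and slowly release volatile pheromones. In the mouse the liver makes more Mup RNA in males than in females from puberty on, under pulses of growth hormone that act through the transcription factor STAT5B, together with testosterone, thyroid hormone and glucocorticoid.

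The 7 genes lie in 1 cluster with the rest of the family: a RefSeq table of mouse genes lists 22 numbered Mup genes, all on chromosome 4, and 24 Mup pseudogenes. The RefSeq promoter table (build GRCm38.p6) holds 4 of the 7 genes, namely Mup2, Mup3, Mup4 and Mup21. The 250 bases before the gene start are shown for Mup3 and Mup21, because their upstream sequences were the most alike of the 6 pairs compared while their levels, described further on, differed among animals. Both run 5′ to 3′ on the minus strand of chromosome 4, Mup3 at chr4:62087318-62087567 and Mup21 at chr4:62150842-62151091. Capitals mark the motif TATATAA.
Mup3: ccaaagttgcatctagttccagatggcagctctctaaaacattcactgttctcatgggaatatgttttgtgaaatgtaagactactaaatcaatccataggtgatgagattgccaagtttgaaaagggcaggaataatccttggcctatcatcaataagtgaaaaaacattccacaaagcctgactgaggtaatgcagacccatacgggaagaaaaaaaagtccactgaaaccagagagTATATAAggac
Mup21: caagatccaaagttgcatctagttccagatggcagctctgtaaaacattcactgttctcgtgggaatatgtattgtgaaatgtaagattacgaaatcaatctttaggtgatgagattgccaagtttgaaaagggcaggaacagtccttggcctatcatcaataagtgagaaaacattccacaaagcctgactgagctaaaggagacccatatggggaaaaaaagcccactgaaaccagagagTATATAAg

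Of 244 aligned bases in these sequences, 229 were identical (93.9%), with a longest shared run of 37 bases. The other 5 pairs had identities of aligned bases from 85.7% (Mup4 and Mup21) to 91.6% (Mup2 and Mup4). Gap positions are left out of these identities, and there were 12 for Mup3 and Mup21 and 42 to 120 for the other pairs. TATATAA occurred once in each of the 4 windows, on the gene's strand, with its first base at position -8 relative to the annotated start in Mup21, -11 in Mup3 and -29 in Mup4. No position is given for Mup2, because the start used in the promoter table lies inside the gene as the RefSeq gene table draws it, so that part of its window is within the gene. The identities with Mup2 use that same window. On the gene's strand TATATAA is present in 2.05% of the 32851 upstream sequences of the same length in the table, and on either strand in 3.04%. TTCNNNGAA, the general form of a STAT site, and TTGCNNAA, a form of a C/EBP site, were searched on both strands and did not occur in these 4 windows. They occur in 7.02% and 9.56% of all upstream sequences. The motifs do not overlap one another in these windows, and no match is shown here to be a bound site.

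All 8 member probes had a higher mean in ethanol livers, and in 7 of the 8 every ethanol animal lay above every control animal. Since this contrast chose the members, these counts are a description and carry no test. Among all 23829 tested probes, 50.1% had a log2 fold change above 0, and 4.12% had every ethanol animal above every control. No member probe passed an adjusted p of 0.05 in limma, a linear model fitted over all probes with Benjamini-Hochberg adjustment, where 0.0210% of tested probes passed. At an unadjusted p under 0.05, 8 of the 8 were higher, against 4.12% of tested probes called higher at that level, and nothing is read from these counts. The median log2 fold change (ethanol minus control) of the 8 probes was 1.93, and that of all tested probes was 0.00.

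Values are given first as the deposited intensity, a linear brightness that is comparable between animals for 1 probe but not between probes. Log2 fold changes come from the fitted, normalized log2 levels and are given with their standard error (SE). Because the Mup genes are so alike, a probe may also detect transcripts of relatives. The probe sequences were not used here, so signals are named by the gene that the platform annotation gives.

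Mup2, a core member of the urinary protein set of the adult male liver, was read by 3 probes. On ILMN_2730208 the intensities were 46841, 51397 and 43939.6 in ethanol animals 1, 2 and 3, against 2507, 20341, 33962 and 22744 in control animals 1 to 4. The groups did not overlap, and control 1 stood far below the other controls, with a control highest-over-lowest ratio of 13.5 against 1.17 in ethanol. The log2 fold change was 1.64 ± 0.67 (SE), and it fell to 0.84 when control 1 was left out.

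On Mup2 ILMN_2730208 the ethanol animals reached 74.1% to 86.2% of the brightest value on their arrays, and the controls 4.90% to 67.4%. The effect of a ceiling on brightness was not tested.

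The second Mup2 probe, ILMN_3065459, had intensities of 13823, 23033 and 31731 in ethanol animals, against 745, 6064, 13300.3 and 7713 in controls. Its lowest ethanol animal was only just above control 3, the highest control. A log2 fold change of 2.15 ± 0.74 (SE) was fitted, and one of 1.31 without control 1.

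The third Mup2 probe, ILMN_3143404, had intensities of 7285, 14729 and 18715 in ethanol animals, against 229.6, 2265, 6393 and 3374 in controls. Again the groups were apart, ethanol 1 was the lowest of its group and control 1 the lowest of all. The fit gave a log2 fold change of 2.63 ± 0.81 (SE), and 1.73 without control 1. The 3 Mup2 probes thus differed in the size of the fitted difference, while the controls stood in the same order on each: 1, 2, 4 and 3 from low to high.

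Mup3, another urinary protein gene with high RNA in liver, had intensities of 48748, 49539 and 50272 in ethanol animals, against 16281, 32055, 39561 and 30275 in controls. The 3 ethanol animals were nearly equal, with a highest-over-lowest ratio of 1.03, and all 4 controls were below them. They stood at 77.1% to 87.0% of their array maximum in ethanol and at 31.8% to 78.5% in controls. The fit gave Mup3 a log2 fold change of 0.69 ± 0.24 (SE), and 0.44 without control 1.

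Mup5, known in the mouse from salivary gland as well, was read by 2 probes, 1 of them near background. On ILMN_3158509 the intensities were 1069, 1776 and 3937 in ethanol animals, against 147, 384, 1169 and 439 in controls. This was the only member probe on which the groups overlapped, since ethanol 1 was below control 3. A log2 fold change of 2.01 ± 0.51 (SE) was fitted.

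On the dim Mup5 probe, ILMN_3079257, the intensities were 25, 46.6 and 62.5 in ethanol animals, against 2.57, 10.6, 14.3 and 0.96 in controls. A probe was counted above background on an array where it exceeded 3 times the noise of that array, a limit of 21.3 to 26.9 over the 7 arrays. By that measure the dim Mup5 probe was above background in 2 of 3 ethanol animals and in 0 of 4 controls, so its level in controls is only a bound. Against that bound the mean of the ethanol livers was 1.21-fold higher, a mean that includes ethanol 1, itself not above background. This ratio and the fitted log2 fold change of 0.57 ± 0.12 (SE) both depend on the offset added before log2. The log2 fold change was 0.89 with an offset of 16 in place of 50, and 1.39 with a floor of 16 in place of an offset.

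Mup20 encodes darcin, the male pheromone that attracts female mice and is remembered by them. Its intensities were 464, 1422 and 2684 in ethanol animals, against 36.2, 143, 307 and 138 in controls. The groups were apart, but the ethanol animals spread over a highest-over-lowest ratio of 5.78 and the controls over 8.49. The log2 fold change of 2.67 ± 0.50 (SE) was the largest of the 8 member probes, just above the 2.63 of Mup2 ILMN_3143404. With no further normalization between arrays that order turned, with 2.67 for Mup20 and 2.68 for the Mup2 probe. The Mup20 value was 2.11 without ethanol 3, 2.36 without control 1 and 3.31 without ethanol 1. Of the 7 runs with 1 animal left out, only the run without ethanol 1 took the Mup20 probe past the adjusted threshold.

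Mup21, which lies at the edge of the cluster, had intensities of 1222, 1146 and 4713 in ethanol animals, against 493, 429, 611 and 391 in controls. Here control 1 was not low: the 4 controls were close together, with a highest-over-lowest ratio of 1.56, and ethanol 3 alone was far above the rest. Its log2 fold change was 1.85 ± 0.39 (SE), and 1.20 without ethanol 3.

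Mup6, the relative kept apart, had intensities of 6913, 15799 and 21384 in ethanol animals, against 436, 2619, 6622 and 3587 in controls. The groups did not overlap and the animals stood in the order seen on Mup2 ILMN_3065459 and ILMN_3143404. The fitted log2 fold change was 2.45 ± 0.70 (SE).

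**Figure D1:**
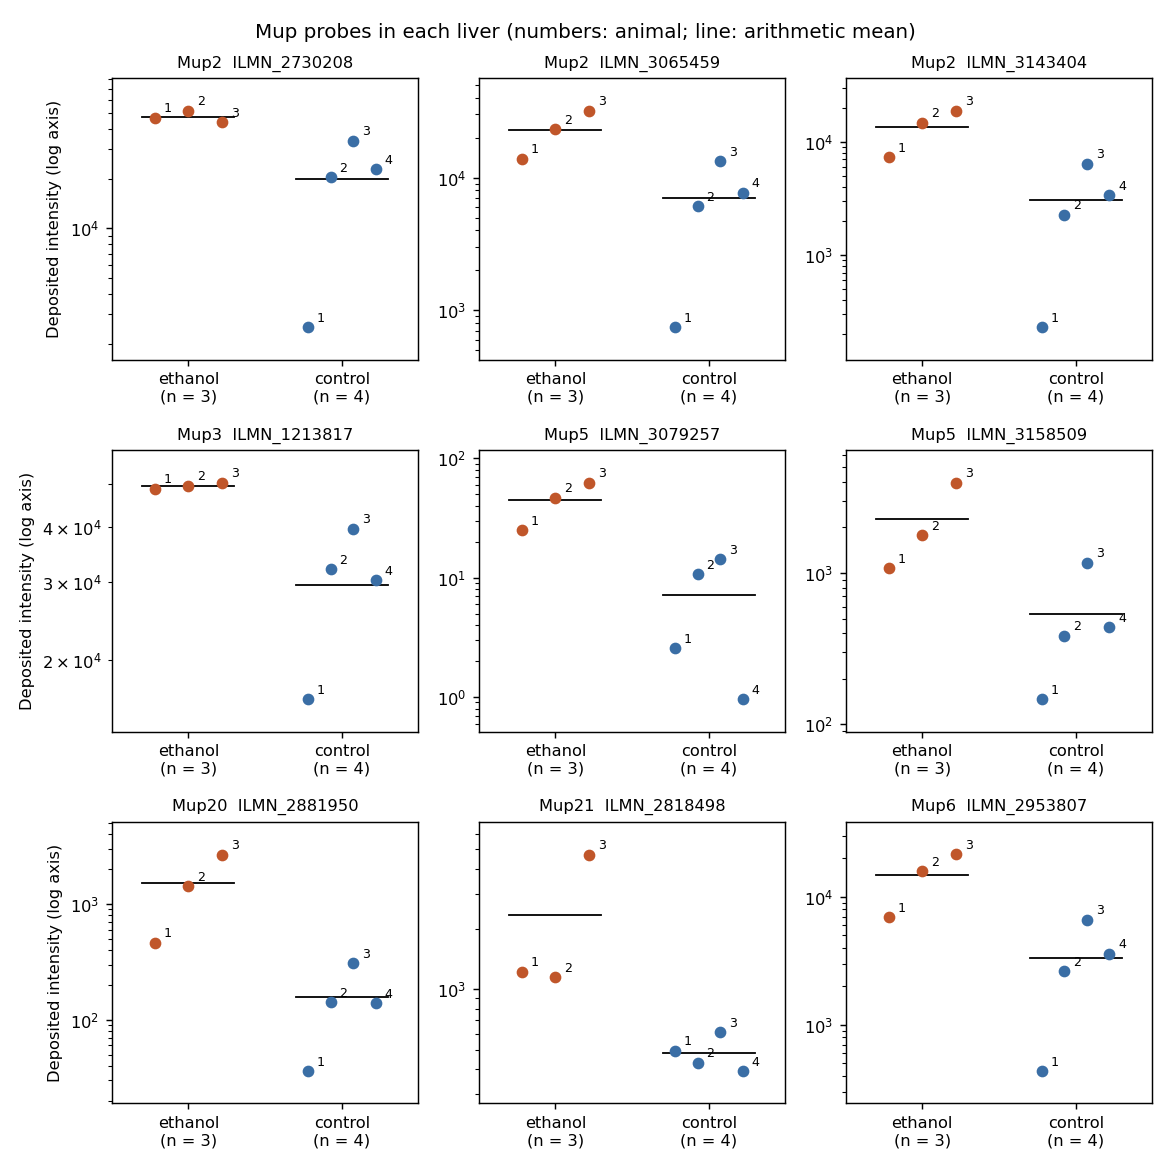
Deposited intensity (log axis, linear brightness units) of the 8 member probes and Mup6 in each liver, ethanol (n = 3) left and control (n = 4) right, with the animal's number beside its point and the arithmetic mean as a line. Only on Mup5 ILMN_3158509 is an ethanol animal (1069) below a control (1169), and control 1 is the lowest animal on each panel except Mup21 and Mup5 ILMN_3079257.

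These are bulk livers, in which fewer cells of a type and less RNA per cell cannot be told apart.

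**Figure D2:**
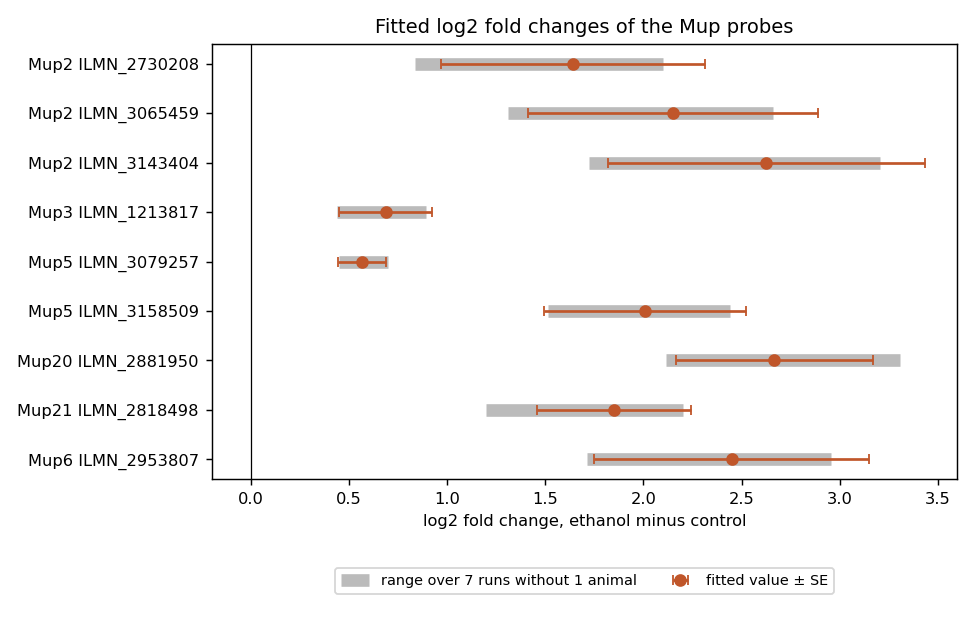
Fitted log2 fold change (ethanol minus control) of each Mup probe with its SE, over a grey bar that spans the 7 fits with 1 animal left out. The bars for the 8 member probes run from 0.44 for Mup3 to 3.31 for Mup20, and each lies above 0.

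The spread between animals of 1 group was itself large for these genes. On the normalized log2 scale, the range over the 3 ethanol animals was 2.39 for Mup20, 2.01 for Mup21 and 1.81 for Mup5 ILMN_3158509, against a median of 0.23 over all tested probes. The range over the 4 controls was 3.75, 4.04 and 4.43 for the 3 Mup2 probes, 2.47 for Mup5 ILMN_3158509, 1.80 for Mup20 and 1.33 for Mup3, against a median of 0.27 over all tested probes. Control ranges as large as that of Mup2 ILMN_3143404 occurred in 0.00420% of tested probes, and as large as that of Mup20 in 0.164%.

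The ethanol ranges were only 0.06 for Mup2 ILMN_2730208 and 0.19 for Mup3, the probes that reached over 70% of the array maximum in every ethanol animal. Mup21 had a range of 2.01 over the ethanol animals and 0.55 over the controls, so that its ethanol spread was the wider. No test of a difference in spread was made.

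**Figure D3:**
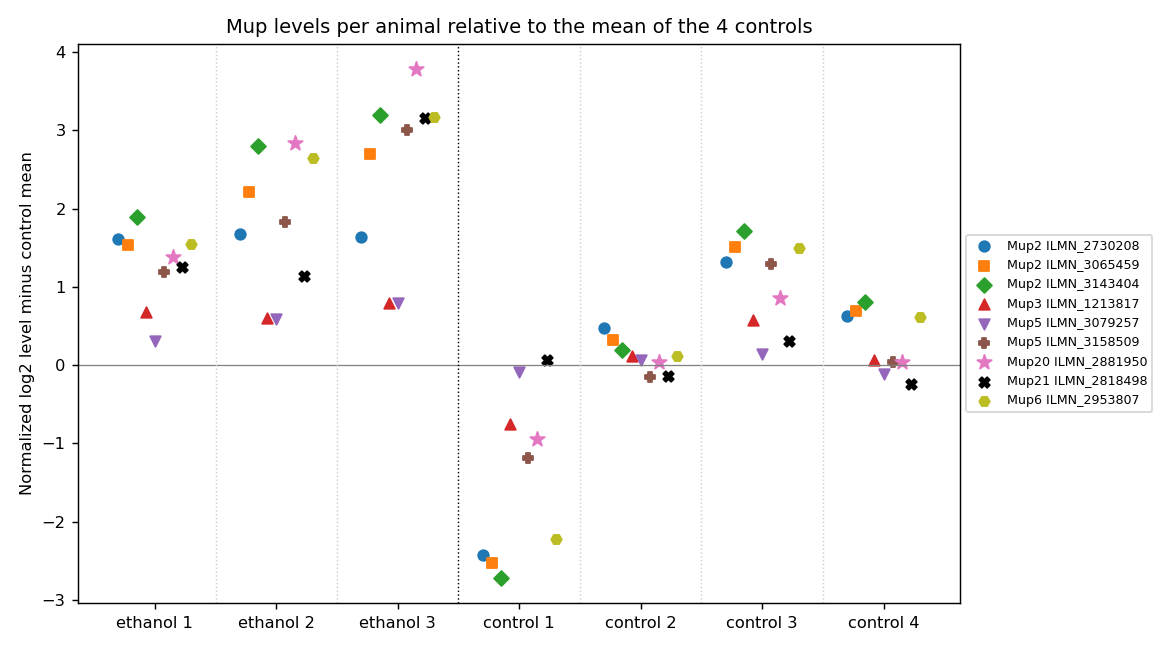
Normalized log2 level of each Mup probe in each animal, minus the mean of the 4 controls for that probe, with ethanol animals left and controls right of the black dotted line. In control 1 the 3 Mup2 probes lie between -2.71 and -2.42, while Mup21 lies at 0.07, and in ethanol 3 Mup20 lies highest at 3.78.

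Control 1 was the low control on most member probes. Its log2 level minus the mean of the other 3 controls was -3.23, -3.37 and -3.62 on the 3 Mup2 probes, -1.0 on Mup3, -1.58 on Mup5 ILMN_3158509 and -1.25 on Mup20. On Mup21 it was 0.09, and on the dim Mup5 probe, ILMN_3079257, it was -0.12. In all, 7 of the 8 member probes were lower in control 1, as were 11845 of the 23829 tested probes. Over all tested probes the middle 95% of this difference ran from -0.42 to 0.43, which takes in Mup21 and the dim Mup5 probe.

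Within the ethanol group, ethanol 3 was the high animal on most member probes. Its log2 level minus the mean of ethanol 1 and 2 was 1.96 on Mup21, 1.67 on Mup20, 1.49 on Mup5 ILMN_3158509, 0.82 on Mup2 ILMN_3065459 and 0.85 on Mup2 ILMN_3143404. It was 0.35 on the dim Mup5 probe, 0.15 on Mup3 and -0.01 on Mup2 ILMN_2730208. The middle 95% over all tested probes ran from -0.41 to 0.40.

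**Figure D4:**
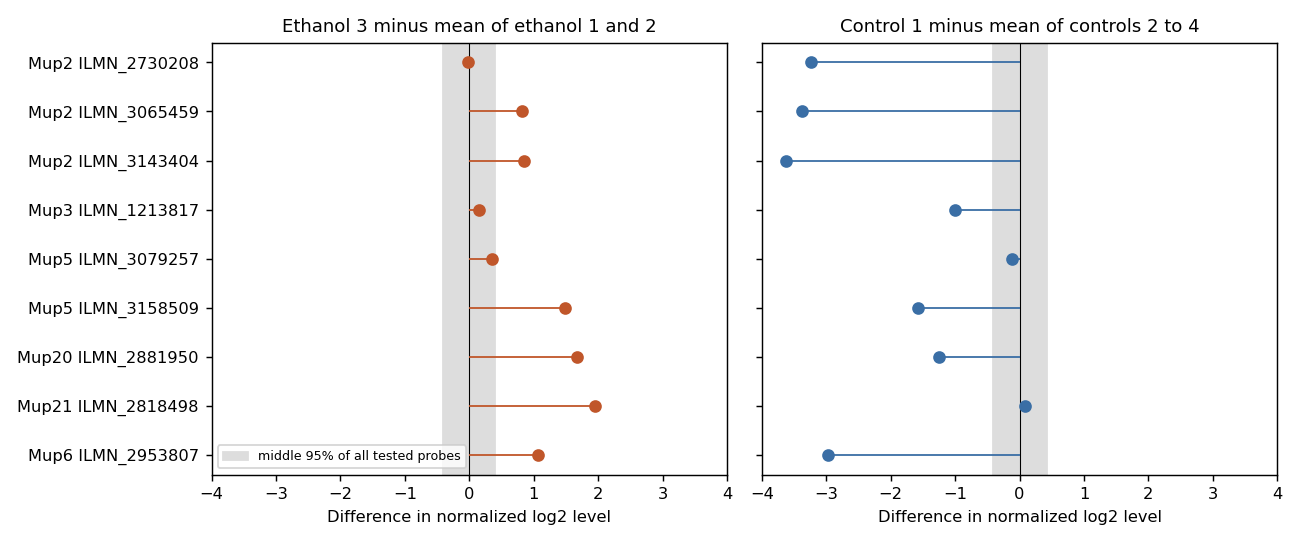
Difference in normalized log2 level of ethanol 3 from the mean of ethanol 1 and 2 (left) and of control 1 from the mean of controls 2 to 4 (right), for each Mup probe, with the middle 95% of all 23829 tested probes in grey. Mup21 (0.09) and Mup5 ILMN_3079257 (-0.12) are inside the grey band for control 1, and Mup21 has the largest value for ethanol 3 (1.96).

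Other measures of these 2 animals moved to differing extents. Over all 23829 tested probes, 11845 were lower in control 1 and 11984 were higher in ethanol 3. In control 1, 19 of 29 male-biased liver genes outside the Mup family were lower than in the other controls, with a median difference of -0.18 log2, and the hepatocyte marker list had a median of 0.01. In ethanol 3, 25 of 29 male-biased genes were higher than in the other ethanol animals, with a median of 0.53, and the female-biased list had a median of -0.38. All 10 tested Kupffer cell and macrophage markers were lower in ethanol 3, with a median of -0.54. The part of any of these in the Mup values was not tested.

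Over the 7 arrays the members fell along a gradient of likeness, given here as Pearson's r of normalized log2 levels. These are descriptions over 7 points that share arrays and the group difference, so r after subtraction of each group's mean is given beside it. The 3 Mup2 probes had r between 0.965 and 0.997 with one another. Mup2 ILMN_3143404 and Mup6 had an r of 0.995, and 0.992 after the group means were subtracted.

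Mup2 ILMN_2730208 and Mup3 had an r of 0.974, and 0.966 within groups. Mup20 and Mup5 ILMN_3158509 had an r of 0.967, and 0.933 within groups. Mup21 was the least like Mup2: its r with Mup2 ILMN_2730208 was 0.496, and 0.0025 within groups. Mup21 and Mup3, whose upstream sequences are shown above, had an r of 0.640, and 0.185 within groups. Mup21 and Mup20 had an r of 0.896, and 0.648 within groups.

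For each member gene, the 3 genes outside the list with the highest r on its brightest probe were named, among 12780 other probes above background on at least 3 arrays. With 7 arrays a high r does not set a gene apart: between 103 and 201 of these probes (0.806% to 1.57%) had an r above 0.9 with a given member. For Mup2 they were Khk, which encodes ketohexokinase, the first enzyme of fructose use (r = 0.994), Trmt1, a tRNA methyltransferase (0.985), and Ssr2, a subunit of the translocon-associated complex of the endoplasmic reticulum (0.980). Khk shared the low control 1 and the level ethanol group, with intensities of 9276, 9852 and 9376 in ethanol animals, against 4716, 8426, 9227 and 8517 in controls.

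For Mup3 they were P3h1, a collagen prolyl hydroxylase (0.983), Gapdh, a glycolytic enzyme (0.980), and Actn4, an actin crosslinker (0.976). For Mup5 they were Trappc9 (0.992), Ces3b, a liver carboxylesterase (0.991), and Rhot2, a mitochondrial GTPase (0.983). Ces3b had intensities of 3875, 5804 and 7487 in ethanol animals, against 1402, 2498, 3590.1 and 2638 in controls, with the groups apart and control 1 lowest.

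For Mup20 they were Pafah2, a phospholipase (0.996), Hsd3b5, a male-biased hepatic steroid dehydrogenase (0.989), and Scp2, a sterol carrier (0.988). Hsd3b5 had intensities of 936, 2814 and 7386 in ethanol animals, against 91.2, 337, 736 and 485 in controls, the same lowest and highest animals as Mup20. Its log2 fold change was 2.74 ± 0.63 (SE), with an adjusted p of 0.336 in limma.

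For Mup21 they were Ssx2ip (0.983), C6, a component of the terminal complement pathway (0.980), and Cdhr5, a cadherin of the brush border (0.976). C6 had intensities of 282, 391 and 814 in ethanol animals, against 180.1, 185, 192 and 145 in controls. As for Mup21, ethanol 3 was highest and control 1 was not apart.

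The genes that bring the growth hormone signal to the Mup genes were set beside them. Of 23 listed growth hormone signalling genes, 17 were tested, and 0 passed an adjusted p of 0.05 in limma in either direction, where 0.00839% of tested probes passed as higher and 0.0126% as lower. At an unadjusted p under 0.05, 1 was higher and 1 lower, against 4.12% of tested probes higher and 4.67% lower. The list's median log2 fold change was -0.04, with 7 genes above 0 and 10 below.

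Ghr, the growth hormone receptor, had intensities of 4450.0, 5069.8 and 5493 in ethanol animals, against 4554, 4824, 5197 and 5188 in controls. The groups overlapped over nearly their whole range. The log2 fold change was -0.01 ± 0.09 (SE) on this brightest probe, and 0.40 and 0.12 on 2 other Ghr probes. Stat5b, the mediator of the pulsatile signal, was not above background on any array on its probe and was not tested.

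Among genes that the receptor induces, Socs2, a feedback inhibitor of the pathway, had intensities of 1107, 1418 and 696 in ethanol animals, against 3488, 3696, 2283 and 2723 in controls. All 3 ethanol animals were below all 4 controls, and the lowest was ethanol 3, the animal with the highest Mup20 and Mup21. Its log2 fold change was -1.48 ± 0.21 (SE), with an adjusted p of 0.0864 in limma. With no filter on dim probes the adjusted p in limma was 0.0433. With an offset of 16 it was 0.103, and with a floor of 16 it was 0.272.

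Cish, another feedback inhibitor, had intensities of 467, 730.0 and 2114 in ethanol animals, against 522, 558, 1717 and 1501 in controls. Both groups spread widely and overlapped, with a log2 fold change of -0.04 ± 0.50 (SE). Igf1, the circulating growth factor made in response to growth hormone, had a log2 fold change of 0.19 ± 0.10 (SE) and an adjusted p of 0.638 in limma. Igfals, which holds Igf1 in its circulating complex, had a log2 fold change of 0.41 ± 0.12 (SE) and an adjusted p of 0.435. Ezh2, a histone methyltransferase, had a log2 fold change of -0.30 ± 0.14 (SE).

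Of the 16 tested regulators linked to Mup transcription, 0 passed in either direction (0.0210% of all tested probes), and the median log2 fold change was 0.02. At an unadjusted p under 0.05, 1 was higher and 1 lower, near the 4.12% and 4.67% of all tested probes. Hnf4a, a master regulator of hepatocyte genes, had intensities of 3469, 2315 and 2695 in ethanol animals, against 2071, 2241, 2778 and 2893 in controls. These groups overlapped, with a log2 fold change of 0.17 ± 0.16 (SE). Zhx2, a transcription factor that regulates several Mup genes in mouse liver, was dim, with intensities of 32.1, 42.2 and 49.5 in ethanol animals, against 18.6, 26.9, 27.0 and 21.1 in controls, and an adjusted p of 0.480 in limma.

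Ppargc1a, a metabolic coactivator, had a log2 fold change of -0.55 ± 0.19 (SE) and an adjusted p of 0.480 in limma. Foxa1, a pioneer factor of liver enhancers, had 0.24 ± 0.19 (SE), and Nr3c1, the glucocorticoid receptor, had -0.18 ± 0.11 (SE) on a probe above background in 0 of 3 ethanol animals and 1 of 4 controls. Thrb, a thyroid hormone receptor, was above background on no array and was not tested.

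Outside the Mup family, 26 of the 29 tested male-biased liver genes had a log2 fold change above 0, with a median of 0.56, beside 1.93 for the 8 Mup probes. At an unadjusted p under 0.05, 23 were higher and 0 lower, against 4.12% and 4.67% of all tested probes. On 14 every ethanol animal was above every control, as on 4.12% of all tested probes, and 50.1% of all tested probes had a log2 fold change above 0. The lists were chosen with earlier results of these data known, so these counts are a description and carry no test. Only Cyp4a12a passed the adjusted threshold. This male-biased fatty acid hydroxylase rose, with intensities of 763, 3466 and 7503 in ethanol animals, against 27.8, 52.7, 118 and 12.9 in controls.

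The ethanol animals stood in the same order for Cyp4a12a as for Mup20, and the lowest control was control 4, not control 1. Its log2 fold change was 4.58 ± 0.58 (SE), with an adjusted p of 0.0394 in limma. That call was lost in each run without 1 animal other than ethanol 1, with adjusted p-values between 0.0539 and 0.206. It was also lost with a floor of 16 (0.185), the above-background filter (0.0665) and a trended, robust variance (0.409).

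Cyp2d9, a male-biased cytochrome P450, had intensities of 14793, 21169 and 22867 in ethanol animals, against 3805, 11996, 12317 and 13138 in controls. Control 1 was far below the other 3 controls, which were close together. The log2 fold change of 1.02 ± 0.35 (SE), with an adjusted p of 0.480 in limma, was 0.61 without control 1. Elovl3, a male-biased fatty acid elongase, was above background in ethanol 3 alone, at 192, and was not tested.

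Of 24 tested genes on the female-biased list, 17 had a log2 fold change below 0, with a median of -0.47. At an unadjusted p under 0.05, 11 were lower and 0 higher, against 4.67% and 4.12% of all tested probes. On 10 every ethanol animal was below every control, as on 4.60% of tested probes. As for the male-biased list, these counts carry no test. The female-biased list shares Bcl6 (0.32) and Cux2 (-0.12) with the growth hormone list, and the sex bias of its genes was not checked here. Sult2a1, a female-biased sulfotransferase, fell, with intensities of 5.19, 17.5 and -6.33 in ethanol animals, against 149.9, 92.2, 92.0 and 191 in controls. It was above background in 0 of 3 ethanol animals and 4 of 4 controls. Its adjusted p was 0.0394 in limma, and lay between 0.105 and 0.181 in each run without 1 animal other than ethanol 1. The call was also lost with a floor of 16 (0.0845), the above-background filter (0.0665) and a trended, robust variance (0.0547).

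The list of other lipocalins and lipid carriers holds structural relatives of the Mup proteins. Of 13 tested, 9 had a log2 fold change above 0, with a median of 0.07, and 0 passed in either direction. At an unadjusted p under 0.05, 2 were higher and 1 lower, against 4.12% and 4.67% of all tested probes. Rbp4, the plasma carrier of retinol, had intensities of 3982, 4321 and 5685 in ethanol animals, against 3581, 4254, 4915 and 5697 in controls, which overlapped. Orm1 and Orm2, acute-phase lipocalins, had log2 fold changes of 0.61 ± 0.13 and 0.62 ± 0.14 (SE), with adjusted p-values of 0.306 and 0.319 in limma. Apom, a carrier of sphingosine phosphate, and Lcn4, a lipocalin known from nasal tissue, had -0.21 ± 0.08 and -0.23 ± 0.11 (SE), and Lcn4 was above background in 0 of 3 ethanol animals and 1 of 4 controls.

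**Figure D5:**
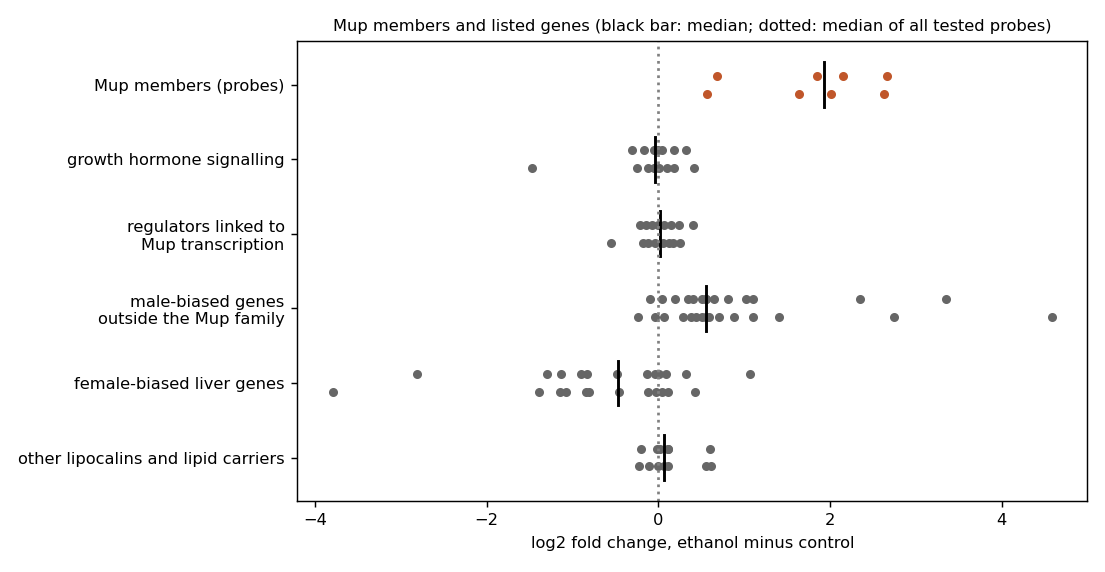
Fitted log2 fold change (ethanol minus control) of the 8 member probes and of the brightest tested probe of each gene in the 5 surrounding lists, with the median of each row as a black bar and the median of all tested probes (0.00) dotted. The medians are 1.93 for the Mup probes, -0.04 for growth hormone signalling, 0.02 for regulators, 0.56 for male-biased genes, -0.47 for the female-biased list and 0.07 for lipocalins.

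The tissue and sex labels were checked on the same arrays. The Y-linked Eif2s3y was above background on all 7 arrays and Xist on none. The 4 sex-check genes with a probe summed to 750 to 776 in ethanol animals and 852 to 1022 in controls, with no overlap. On 2 of them every ethanol animal was below every control, as on 4.60% of all tested probes, and nothing is read from this count. Of 11 hepatocyte markers with a probe, 10 were above background on at least 3 arrays, with a summed intensity of 248982 to 265430 in ethanol animals and 215118 to 255969 in controls, ranges that overlap. Kupffer cell and macrophage markers summed to 6278 to 10093 in ethanol animals and 6660 to 7559 in controls, also overlapping.

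Stellate cell and fibroblast markers summed to 10464 to 11130 in ethanol animals and 11257 to 14198 in controls, with no overlap. Of the 14 markers, 3 had every ethanol animal below every control, as did 4.60% of all tested probes. In the endothelial and erythroid lists 1 marker each did so. The Kupffer cell and lymphocyte lists had 1 marker each with every ethanol animal above every control, as did 4.12% of tested probes. Nothing is read from these counts. Cholangiocyte markers summed to 267 to 519 in ethanol animals and 206 to 675 in controls, which overlap. Of the 5 with a probe, 1 was above background on at least 3 arrays (Sox9, on all 7), while Krt7 was above background in 2 of 4 controls, and the defining markers Krt19 and Epcam on no array. The part of cell composition in the Mup values was not tested. Levels over all tested probes correlated between arrays at 0.988 to 0.990 within ethanol, 0.987 to 0.995 within control and 0.981 to 0.992 across the groups.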

How the data were processed

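Total RNA of 7 livers was hybridised to 1 Illumina array each. The values used are linear intensities as deposited. GenomeStudio is named in the submitters' processing notes, with version, background correction and normalization not given in the sources used here, but values below 0 show that a background had been subtracted. Array medians lay between 5.13 and 5.94 and maxima between 50423 and 63235, and 13951 to 15068 probes per array were above background. A second table has 14 columns that no sample label matches and was set aside.

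The deposited intensities were put through normexp (offset 50), log2 and quantile normalization in limma 3.58.1 (R 4.3.3), which understates differences of dim probes. The 23829 probes whose value exceeded their array's median on 3 or more arrays were fitted (lmFit, eBayes), and two-sided p-values were adjusted by Benjamini-Hochberg at a threshold of 0.05. The fit was tested on simulated data. Background was 3 times the root mean square of an array's negative values. A bound used each array's lowest signal above background or the probe's own, if higher. Probe names came from the platform annotation, updated by Entrez ID: 34885 probes had 1 gene symbol, 18 several and 10378 none. Promoters were aligned with Biopython 1.88.

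The members and gene lists were chosen with earlier results of these data known. Genes were named by a rule: all member probes, the 3 most similar genes per member, and from each list those past the threshold, otherwise the 4 with the largest statistic, plus 15 fixed names where tested. A gene in a list was read on its brightest tested probe. Alternatives covered the offset, a floor, normalization, filters, the variance model, the replicate number as a block and each animal left out.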

Additional observations from a re-analysis of the deposited data

Results flagged for a closer look

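Cyp2d9, a male-biased cytochrome P450 named from the list of male-biased genes, had a control animal far from the others of its group. Control 1 was at an intensity of 3805, and the gap to the next control was 0.878 of the group's whole range, above Dixon's 95% critical value for 4 samples. Without control 1 the log2 fold change of Cyp2d9 was 0.61, against 1.02 with all animals. This was 1 of 29 control groups checked, and chance alone gives such a value in about 1 in 20 groups.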

How the results depend on the processing

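The 8 member probes stayed higher in ethanol livers in all 15 alternatives in which they were fitted, in 119 of 119 values. The dim Mup5 probe did not pass the filter on probes above background. Left-out animals moved the members' median log2 fold change between 1.46 and 2.28. The number of tested probes past the threshold, 5 in the analysis reported, was less stable. It was 3 with an offset of 16, 0 with a floor of 16, 8 with no filter, 0 with the above-background filter and 1 with a trended, robust variance, and ranged from 0 to 27 over the 7 left-out animals. Member probes past the threshold ranged from 0 to 1 over the left-out animals, with Mup20 passing when ethanol 1 was left out. With the replicate number as a block, 24 probes and 2 member probes passed (Mup20 and Mup5 ILMN_3158509), and Socs2 and Hsd3b5 passed as well (adjusted p 0.00501 and 0.00125 in limma). The numbers were not taken to pair the animals, because the labels state no litter or day shared by animals of the same number. Deviations of same-numbered animals correlated at -0.19, 0.09 and 0.20, and those of differently numbered animals at -0.28 to 0.30. These overlapping values cannot decide whether the animals were paired.

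Values near 0 changed sign. The log2 fold change of Ghr was 0.0156 with no further normalization and 0.0120 with the replicate block, and ranged from -0.0881 to 0.0585 over left-out animals. Cish was 0.18 with the block and ranged from -0.64 to 0.39. Rbp4 was -0.00839 with median scaling and ranged from -0.16 to 0.11. Foxa1 ranged from -0.0214 to 0.39. The causes were not tested. The analysis of the table before normalization was not run, because its columns match no sample label. With 7 arrays the precision is limited throughout. Mup2 ILMN_2730208 and Mup3 lay at 74.1% to 87.0% of the array maximum in ethanol animals, and at 4.90% to 78.5% in controls.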
